A study of Mus musculus with 32 samples.

Results

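Of the stress regulators measured in this set of arrays, 4 genes are described here: Ppp1r15a, Xbp1, Gadd45a and Junb. They were found by their symbols in the probe annotation, and 6 of the 20794 probes carried them. Ppp1r15a had 3 probes (numbers 2223, 10093 and 13588), and Xbp1 (16721), Gadd45a (20305) and Junb (1741) had 1 each. They are 4 of 17053 genes, where a probe without a symbol counts as a gene of its own, and all 4 had values in every tissue. The members were chosen by their log2 ratios against the wild-type pool in these 4 tissues, so their values are a description and no test of them is given.

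The samples were muscle, pancreas, kidney and brain of 4 male Nox4 knockout mice (Nox4 -/-, C57BL/6, aged 17 weeks). Each tissue of each animal was hybridised to 2 cDNA arrays with the dyes exchanged, 32 arrays in all. The reference on every array was RNA pooled from wild-type C57BL/6 males of that age, 4 animals by the design text and 6 by the labelling protocol. The loss of Nox4, an NADPH oxidase that makes hydrogen peroxide, was thus compared with the wild type through 1 pool, and the spread between wild-type animals was not measured. A value is a log2 ratio, likely knockout over pool: 0 means equal signal and 1 a doubling in the knockout. No probe is named Nox4 (0 of 20794), so the deleted gene checks neither the labels nor the direction. The arrays hold ratios and no levels, so tissue markers cannot check a tissue's label either. In whole tissue, fewer cells of a type and less RNA per cell cannot be told apart.

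When unfolded proteins, amino acid shortage, haem deficiency or double-stranded RNA activate an eIF2 kinase, the kinase phosphorylates the alpha subunit of eIF2 and most translation slows, while Atf4 is translated more. Atf4 and Ddit3 then raise transcripts that include Ppp1r15a (also called GADD34), whose protein brings protein phosphatase 1 to eIF2 alpha and lets translation resume. Xbp1 is the transcription factor of another branch of the unfolded protein response: Ern1 splices its mRNA, and the product drives chaperone and secretory genes. Secretory tissue such as exocrine pancreas depends on it. Gadd45a is induced by DNA damage and by Atf4 and acts on the p38 and JNK kinases, and in muscle it is known as a gene of fibre atrophy. Junb is a subunit of AP-1, an immediate early gene that in muscle is known to help keep fibre mass.

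The promoters of the 2 members whose values stood farthest from 0 in muscle, Ppp1r15a and Gadd45a, are shown because both genes are known Atf4 targets. The sequences are from RefSeq (GRCm38.p6) and hold the 250 bases before the annotated start, read 5′ to 3′ on the gene's strand. Capitals mark a cAMP response element, TGACGTCA, in Ppp1r15a and a CCAAT box in Gadd45a.
Ppp1r15a, chr7:45526269-45526518, minus strand: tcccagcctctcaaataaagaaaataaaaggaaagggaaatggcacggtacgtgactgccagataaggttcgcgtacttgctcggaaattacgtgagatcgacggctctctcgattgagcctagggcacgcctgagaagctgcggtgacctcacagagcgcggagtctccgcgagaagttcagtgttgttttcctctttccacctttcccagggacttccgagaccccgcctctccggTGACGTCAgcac
Gadd45a, chr6:67037408-67037657, minus strand: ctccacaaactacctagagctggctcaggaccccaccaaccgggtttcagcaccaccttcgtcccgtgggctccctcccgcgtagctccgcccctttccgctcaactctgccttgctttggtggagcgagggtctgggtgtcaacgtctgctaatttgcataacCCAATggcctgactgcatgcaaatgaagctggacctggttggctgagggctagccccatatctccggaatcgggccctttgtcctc

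Each of 7 motifs was searched on both strands in the 250 bases before the start of all 4 genes and of 32851 windows of that length. TGACGTCA lay 12 to 5 bases before the start of Ppp1r15a and in 1.55% of the windows. CCAAT lay 86 to 82 bases before the start of Gadd45a and 36 to 32 bases before that of Junb, and in 33.8% of the windows. The other 5 motifs had no match in the 4 members: the AP-1 site TGANTCA (6.75% of windows), the Atf4 composite element TGATGNAA (3.45%), the unfolded protein response core TGACGTG (1.65%), the ER stress element (0.113%, a longer motif that contains a CCAAT box) and the TATA box TATAAA (12.4%). A match is a run of letters and not a measured binding site, and the absence of one says only that these letters are not in this window.

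As the mean of its 3 probes, Ppp1r15a stood above the wild-type pool in muscle and below it in pancreas. In muscle the 4 knockout animals had log2 ratios of 0.45, 0.60, 0.48 and 0.43, each the mean of the animal's 2 arrays. The mean was 0.49 ± 0.08 (SD, n = 4; limma SE 0.06), or 1.40-fold. The ratio was above 0 on all 8 arrays, as it was for 1.56% of genes in muscle. In pancreas the animals were at −0.42, −0.33, −0.79 and −0.26. The mean there was −0.45 ± 0.24 (SD, n = 4; limma SE 0.11), or 0.731 times the pool, with 2 of 8 arrays above 0. Every muscle animal lay above 0 and every pancreas animal below it; 6.85% of genes were above 0 in all 4 muscle animals and 5.15% below 0 in all 4 pancreas animals. Both of these held only with probe 13588, which had 7 muscle and 3 pancreas values: without it muscle animal 1 was at −0.13 and pancreas animal 4 at 0.01.

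In kidney Ppp1r15a was at 0.03, −0.23, −0.63 and 0.35 in the 4 animals, with a mean of −0.12 ± 0.42 (SD). These animals fell on both sides of the pool. In brain the animals were at 0.09, 0.20, −2.37 and 0.14, with a mean of −0.48 ± 1.26 (SD). The low animal came from a single value of −16.4 on 1 of its arrays with the knockout in Cy3, at the floor of the scale. With floor values taken as missing, that animal was at 0.36 and the brain mean at 0.20, with every brain animal above 0 (8.86% of genes were so with floor values kept). The 0.36 still held the Cy5 value of the same probe, 13588, at 2.13, without its dye-swapped partner. With probe 13588 left out, that animal was at 0.02, and all 4 brain animals were above 0, from 0.02 to 0.65.

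For Ppp1r15a the difference in log2 ratio was 0.94 for muscle minus pancreas, 0.61 for muscle minus kidney and 0.97 for muscle minus brain (0.29 with floor values as missing). The limma SE of each was 0.44 with floor values kept and 0.17 without them. The lowest muscle animal, 0.43, lay above the highest animal of the other 3 tissues, 0.35 in kidney (0.36 in brain with floor values as missing). Without probe 13588 the muscle animals, from −0.13 to 0.69, overlapped those of each other tissue. Of 14931 genes with 16 animal means, 1.27% had every muscle animal above every animal of the other tissues. Muscle animals lay wholly above those of pancreas in 2.24% of genes, above those of kidney in 3.31% and above those of brain in 3.24%. These contrasts were used to choose the gene, and nothing is read from these shares. Ppp1r15a ranked in the top 2.48% of genes in muscle by its mean, and 97.5% of genes were higher than it in pancreas.

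**Figure D1:**
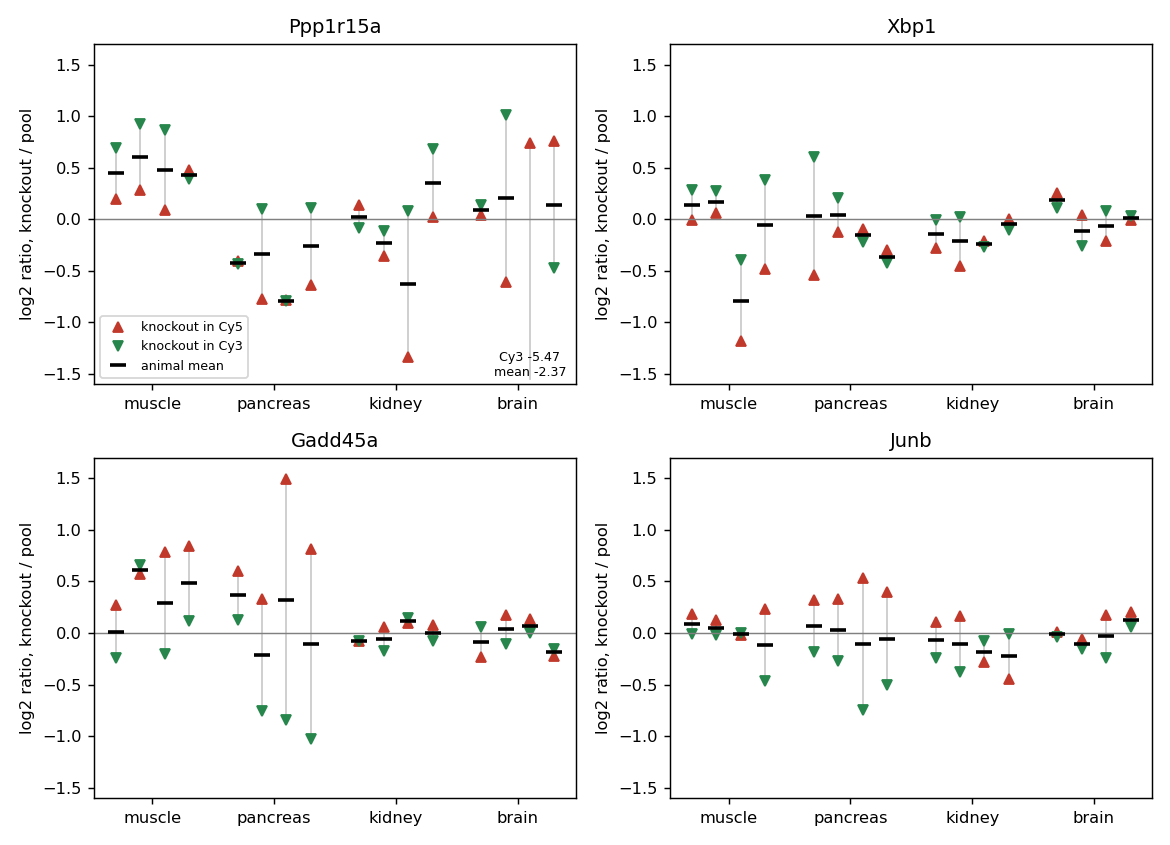
Log2 ratio of knockout over wild-type pool (y axis) for the 4 genes in muscle, pancreas, kidney and brain. Triangles are single arrays, up for the knockout in Cy5 and down for the knockout in Cy3, a grey line joins the 2 arrays of an animal and a bar is their mean. All 8 muscle arrays of Ppp1r15a (mean of its probes) lie above 0, and 1 brain array at −5.47 (mean of its probes) is written in as off scale. In pancreas the up and down triangles of Gadd45a and Junb lie apart.

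The 3 probes of Ppp1r15a did not carry the muscle value equally. Probe 2223 had animal means of 0.19, 1.14, 0.94 and 1.11 in muscle, a mean of 0.84 ± 0.45 (SD, n = 4). It was above 0 on all 8 arrays, at 0.84 with the knockout in Cy5 and 0.85 in Cy3. Of 19486 single probes, 1.64% were above 0 on all 8 muscle arrays. Probe 10093 had muscle means of −0.45, −0.01, 0.44 and 0.18 in the 4 animals, a mean of 0.04 ± 0.37 (SD, n = 4). Probe 13588, which lacked values on many arrays, averaged 0.78 ± 0.77 (SD) over the 3 animals with both arrays, and 4 of its 7 muscle values were above 0, from −0.89 to 2.67. The close agreement of the muscle animals in the average of 3 probes was therefore not seen in any single probe.

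In pancreas, probe 2223 of Ppp1r15a averaged −0.14 ± 0.29 (SD, n = 4) and probe 10093 averaged −0.34 ± 0.38 (SD, n = 4), each with 1 of 4 animals above 0. Probe 13588 had 3 pancreas values, all below 0 (from −1.86 to −1.12), and no animal with both arrays. With probe 13588 left out, an alternative added after the data were seen, Ppp1r15a was at −0.13, 0.56, 0.69 and 0.65 in the muscle animals, a mean of 0.44 ± 0.39 (SD, n = 4), with 7 of 8 arrays above 0. In pancreas it was then at −0.42, −0.03, −0.52 and 0.01, a mean of −0.24 ± 0.27 (SD, n = 4), so that 1 animal in each tissue crossed 0. Its kidney mean was then 0.02 and its brain mean 0.19. That brain mean rested on animal 2 at 0.65, with 1.26 on 1 array, while the other brain animals ran from 0.02 to 0.09. On probe 2223 alone, the muscle range of 0.19 to 1.14 overlapped that of kidney, −0.09 to 0.30, through muscle animal 1. Across arrays the probes ran together only weakly: r was 0.0630 between 2223 and 10093 (32 arrays), 0.180 between 2223 and 13588 and 0.0927 between 10093 and 13588 (20 arrays each). Over all 4944 pairs of probes that share a symbol the median r was 0.00431, with quartiles of −0.233 and 0.250. Which probe follows the transcript best was not tested.

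**Figure D2:**
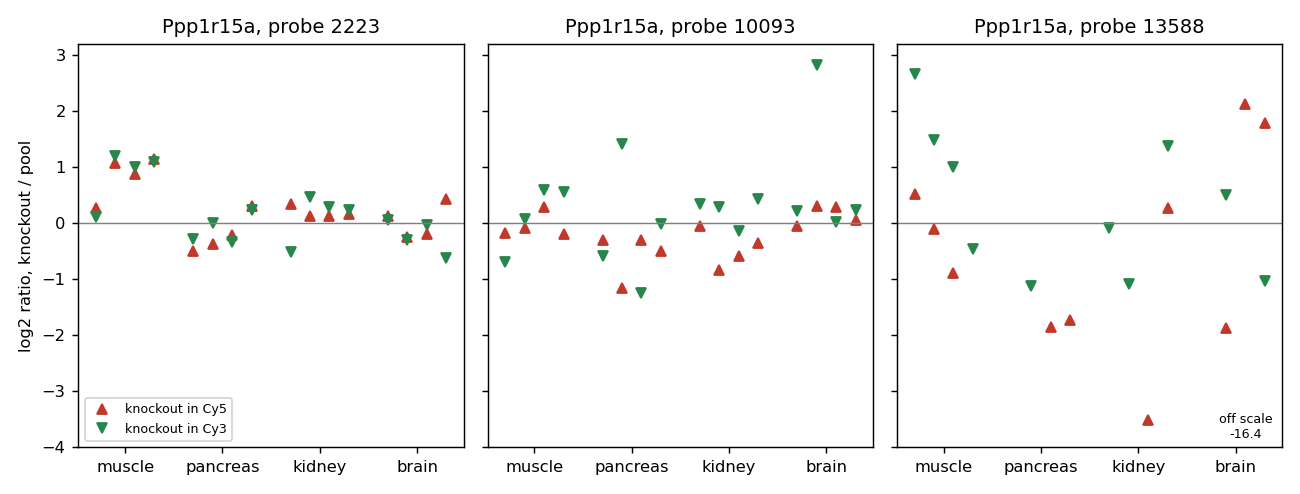
Log2 ratio of knockout over pool (y axis) on every array for each of the 3 probes of Ppp1r15a, by tissue, with up triangles for the knockout in Cy5 and down triangles for Cy3. Probe 2223 lies between 0.11 and 1.20 in muscle, while probe 10093 lies on both sides of 0 there, and the floor value of −16.4 on probe 13588 in brain is written in as off scale.

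Xbp1, the transcription factor of the Ern1 branch, was below the pool in all 4 kidney animals, at −0.15, −0.21, −0.24 and −0.05, a mean of −0.16 ± 0.09 (SD, n = 4; limma SE 0.05). Only 2 of the 8 kidney arrays were above 0. In muscle its animals were at 0.13, 0.17, −0.79 and −0.05, a mean of −0.13 ± 0.45 (SD). Muscle animal 3 stood low on both of its arrays, at −1.18 and −0.40, and without it the mean was 0.08. In pancreas Xbp1 averaged −0.11 ± 0.19 (SD), from −0.36 to 0.04, with 2 of 4 animals above 0. In brain it averaged 0.01 ± 0.13 (SD), from −0.11 to 0.19. From high to low the order was brain, pancreas, muscle and kidney, and the animals of every pair of tissues overlapped. In the kidney, 9.85% of genes were below 0 in all 4 animals, the side on which Xbp1 and Junb lay.

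Gadd45a, the damage-induced partner of stress kinases, was above the pool in all 4 muscle animals, at 0.01, 0.61, 0.29 and 0.48, a mean of 0.35 ± 0.26 (SD, n = 4; limma SE 0.11), or 1.27-fold. The muscle arrays with the knockout in Cy5 stood at 0.27, 0.57, 0.79 and 0.85 for Gadd45a. Those with the knockout in Cy3 stood at −0.24, 0.66, −0.20 and 0.11, so that animals 1 and 3 had an array below 0. In pancreas its mean was 0.09 ± 0.29 (SD), from −0.21 to 0.36, and the dye orientations went apart. With the knockout in Cy5 the pancreas arrays were at 0.61, 0.33, 1.49 and 0.81, and with the knockout in Cy3 at 0.12, −0.75, −0.85 and −1.03. In kidney it averaged −0.01 ± 0.09 (SD) and in brain −0.04 ± 0.12 (SD), with animals on both sides of 0 in each.

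The order for Gadd45a was muscle, pancreas, kidney and brain. The difference in log2 ratio was 0.26 for muscle minus pancreas, 0.35 for muscle minus kidney and 0.39 for muscle minus brain, with a limma SE of 0.14 each. The muscle range, 0.01 to 0.61, overlapped that of every other tissue through muscle animal 1. Its probe, 20305, lies among the last 2080 probe numbers. Those 2080 probes had a muscle median of −0.01, against −0.02 elsewhere, and 9.81% of them were higher than Gadd45a there.

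Junb, the AP-1 subunit, was below the pool in all 4 kidney animals, at −0.07, −0.11, −0.18 and −0.23, a mean of −0.15 ± 0.07 (SD, n = 4; limma SE 0.04). All 4 kidney arrays with the knockout in Cy3 were below 0, from −0.38 to −0.01, and 2 of the 4 with the knockout in Cy5. Its muscle mean was 0.00 ± 0.09 (SD), its pancreas mean −0.02 ± 0.08 (SD) and its brain mean −0.01 ± 0.10 (SD), each with animals on both sides of 0. In pancreas the small mean hid opposite values. The arrays with the knockout in Cy5 were at 0.32, 0.33, 0.53 and 0.40, and those with the knockout in Cy3 at −0.18, −0.27, −0.74 and −0.51. In pancreas, 9.03% of genes were above 0 on all 4 Cy5 arrays and below 0 on all 4 Cy3 arrays, as Junb was. From high to low the order was muscle, brain, pancreas and kidney, and the animals of every pair overlapped.

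**Figure D3:**
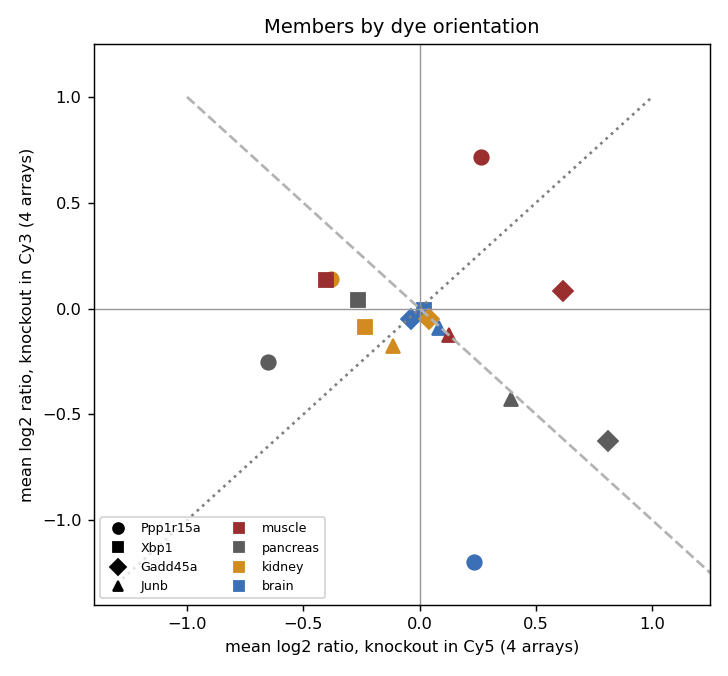
Mean log2 ratio of the 4 arrays with the knockout in Cy5 (x axis) against that of the 4 arrays with the knockout in Cy3 (y axis), for each gene (symbol) in each tissue (colour). Points on the dotted line have equal values in both orientations, and points on the dashed line have opposite ones. Junb (0.39 and −0.43) and Gadd45a (0.81 and −0.63) in pancreas lie near the dashed line, and Ppp1r15a in muscle (0.26 and 0.72) has the same sign in both.

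The sign of the arrays with the knockout in Cy3 matters for these genes, and the files do not state whether it had been turned before deposit. With floor values as missing, r over all probes ran from −0.576 to 0.0634 between the dye-swapped arrays of 1 animal. It ran from 0.0317 to 0.482 between different animals of a tissue in the same orientation. If the Cy3 arrays still need turning, Ppp1r15a would be at −0.23 in muscle and −0.20 in pancreas. Gadd45a would be at 0.27 in muscle and 0.72 in pancreas, Junb at 0.03 in kidney and 0.41 in pancreas, and Xbp1 at −0.07 in kidney and −0.27 in muscle. Turned this way, muscle Ppp1r15a would lie below the pool, and the muscle to pancreas difference would be −0.03. Its probe 2223 in muscle, at 0.84 and 0.85 in the 2 orientations as deposited, has matching signs without turning. Values at the floor were positive with the knockout in Cy5 (920, 0 negative) and negative with it in Cy3 (924, 0 positive). Read as knockout over pool as deposited, the Cy3 channel was the low one for all of them. With the Cy3 arrays turned, the low one would be the pool for all of them. Which reading holds was not tested.

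The 4 genes ran together weakly. Over the 16 animal means, with floor values as missing, the 6 correlations between them ran from −0.0399 (Xbp1 and Gadd45a) to 0.314 (Xbp1 and Junb). After removal of tissue means they ran from −0.355 (Gadd45a and Junb) to 0.295 (Xbp1 and Junb). These points share the arrays, the pool and, within a tissue, the same 4 animals. Ppp1r15a and Gadd45a were both above 0 in all muscle animals, and r between them within tissues was −0.225.

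By Pearson's r over the 16 animal means, the genes most like Ppp1r15a were Lztr1 (0.904), Itih1 (0.846) and Fam229b (0.739) among 7720 genes. That likeness turned on brain animal 3: with floor values as missing they were Saa1 (0.778), Ephx1 (0.751) and Mrps16 (0.740). For Xbp1 they were the lipoxygenase Aloxe3 (0.847), Isg20l2 (0.845) and the circadian repressor Per1 (0.840) among 7719 genes. For Gadd45a they were Nckap1l (0.921), the Mediator subunit Med25 (0.895) and the ubiquitin ligase Rnf8 (0.889). For Junb they were Nkain1 (0.823), the urate transporter Slc22a12 (0.810) and the co-chaperone Dnajb1 (0.810). These are the highest of many values and describe likeness of pattern only.

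Of 27 direct partners of the 4 genes, 17 were measured. The other 10, Eif2s1, Eif2ak1, Eif2ak3, Eif2ak4, Ppp1r15b, Ppp1ca, Ern1, Atf6, Dnajb9 and Jund, had no probe named for them, so eIF2 alpha itself, most of its kinases and both Ern1 and Atf6 were not analysed here. No partner passed the test in any tissue. Limma called 0% of genes in each tissue at an adjusted p under 0.05 (0 of 16662 genes for muscle, 0 of 16377 for pancreas, 0 of 16825 for kidney and 0 of 16729 for brain). At an unadjusted p under 0.05 the shares were 7.29% for muscle, 2.91% for pancreas, 9.28% for kidney and 4.13% for brain.

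Among upstream partners, Eif2ak2, the kinase that double-stranded RNA activates, lay between 0.01 and 0.07 in the 4 tissues. Ppp1cb and Ppp1cc, catalytic subunits of the phosphatase that Ppp1r15a recruits, were at 0.09 ± 0.08 and −0.04 ± 0.32 (limma SE, n = 4) in muscle. In pancreas they were at 0.02 ± 0.11 and 0.45 ± 0.15. Ppp1cc thus lay above the pool in pancreas, where Ppp1r15a lay below it, though with 3 of 4 animals above 0 and an adjusted p of 0.991 (limma). In kidney they were at −0.01 and −0.17. In brain Ppp1cb was at 0.05 and Ppp1cc, with a floor value on 1 array, at 1.13.

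Atf4, the factor whose translation rises when eIF2 alpha is phosphorylated, averaged 0.05 ± 0.23 in muscle and 0.10 ± 0.11 in pancreas (limma SE, n = 4). It averaged −0.04 ± 0.09 in kidney and 0.12 ± 0.07 in brain. Its muscle arrays split by dye, with a mean of 0.88 with the knockout in Cy5 and −0.77 with it in Cy3. Ddit3, the pro-death factor CHOP, lay between −0.05 and 0.02 in the 4 tissues. Atf3 was at −0.15 ± 0.16 in muscle and 0.32 ± 0.38 in pancreas. Trib3, a pseudokinase that restrains Atf4, was at −0.17 ± 0.09 in pancreas, with 1 of 4 animals above 0, and between −0.03 and 0.15 in the other tissues. Asns, asparagine synthetase, was below 0 in all 4 animals of muscle (−0.16 ± 0.07), as were 12% of genes, and of kidney (−0.08 ± 0.04), as were 9.85%. It was at 0.12 ± 0.10 in pancreas and 0.22 ± 0.17 in brain. The muscle means of these 5 genes ran from −0.16 to 0.05. That of Ppp1r15a was 0.49 over its 3 probes and 0.04 on probe 10093 alone. Ppp1r15a was chosen with its muscle value known, so nothing is read from this contrast.

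Downstream of Xbp1 and Atf6, the chaperone Hspa5 (BiP) was at −0.09 ± 0.10 in muscle and −0.02 ± 0.16 in pancreas. Its kidney value was −0.08 ± 0.07 and its brain value 0.04 ± 0.07. Herpud1, which serves degradation at the ER, lay between −0.06 and 0.06, and Edem1, which sends misfolded glycoproteins to it, between −0.05 and 0.15. In kidney, where Xbp1 averaged −0.16, Hspa5, Herpud1 and Edem1 averaged −0.08, −0.06 and −0.05, each with 3 of 4 animals below 0. Adjusted p values of these kidney values ran from 0.679 to 0.802 (limma). The share of all genes with 3 of 4 kidney animals below 0 was not counted. In the wider list of the Xbp1 and Atf6 branches, 16 of 43 measured genes other than Xbp1 were above 0 in kidney, beside 51.5% of all genes.

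Gadd45b and Gadd45g, the relatives of Gadd45a, were at −0.10 ± 0.12 and 0.09 ± 0.06 in muscle, where Gadd45a was at 0.35. In pancreas they were at −0.10 and −0.03, in kidney at −0.06 and 0.09 and in brain at −0.06 and 0.15. Cdkn1a (p21), a cell cycle inhibitor induced by p53, was at 0.11 ± 0.08 in muscle and 0.20 ± 0.09 in pancreas. Its kidney and brain values were 0.04 and −0.05. Of the AP-1 partners of Junb, Jun was at −0.07 in muscle, 0.73 in pancreas with a floor value on 1 array, 0.01 in kidney and −0.00 in brain. Fos was at 0.20 ± 0.10 in muscle, above 0 in all 4 animals, at 0.09 in pancreas, 0.07 in kidney and −0.16 in brain. The early gene Egr1 had a muscle mean of 0.18 from −0.66 with the knockout in Cy5 and 1.03 with it in Cy3. Its pancreas mean of 0.14 came from −0.62 and 0.90. The adjusted p over all genes was 0.511 or more for every stress list gene other than the 4 in every tissue (limma).

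**Figure D4:**
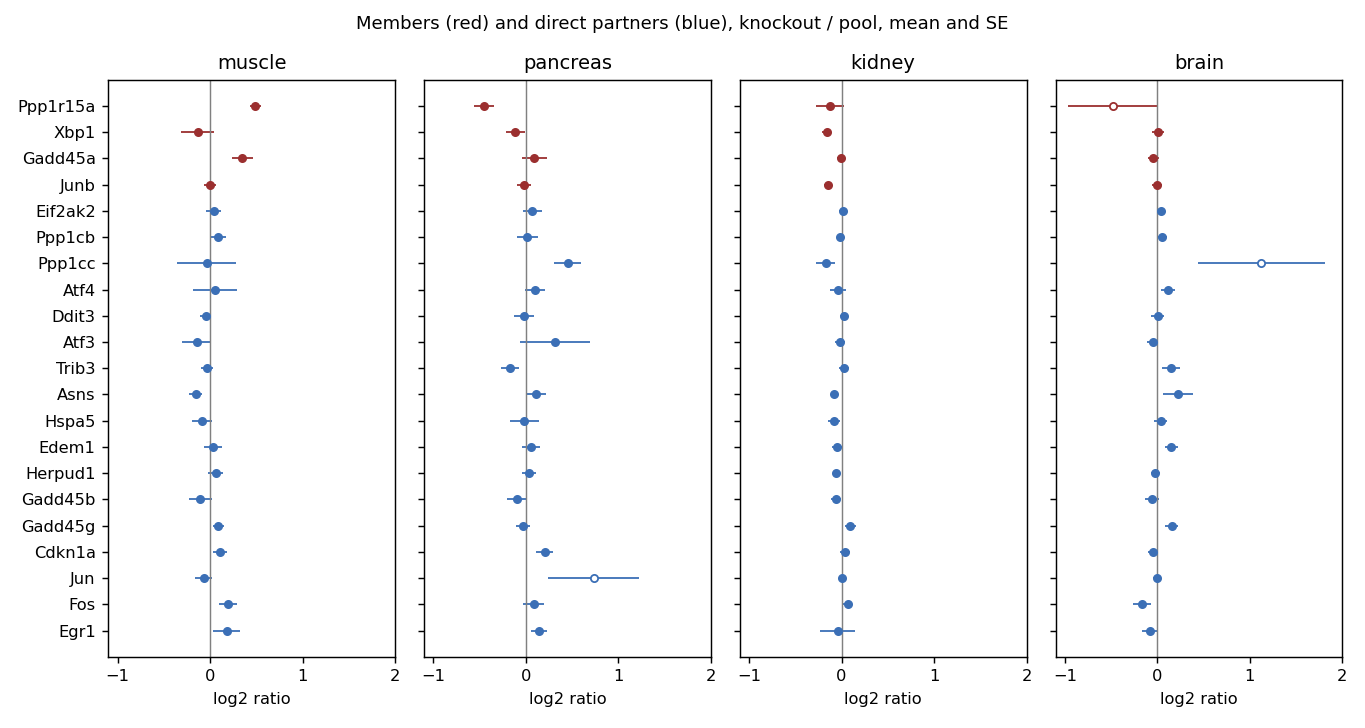
Mean log2 ratio of knockout over pool (x axis) with the limma SE as a bar, for the 4 genes (red) and their 17 measured partners (blue) in each tissue, n = 4 animals. Open symbols hold a floor value. Ppp1r15a and Gadd45a lie right of 0 in muscle at 0.49 and 0.35, Ppp1r15a left of 0 in pancreas at −0.45, and partners lie on both sides of 0.

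The wider pathways were described with 7 lists of 190 genes. The 4 genes themselves were left out of the counts in this paragraph, but not of the list medians and counts above 0 given further below. Leaving them out gives 186 genes, of which 134 were measured (132 in pancreas and between tissues). None of these genes passed after adjustment over all genes, in a tissue or between tissues. At an unadjusted p under 0.05 (limma), the lists had 6 genes in muscle (3 above and 3 below the pool), 4 in pancreas (2 and 2), 15 in kidney (4 and 11) and 5 in brain (2 and 3). As shares of the list these were 4.48% (muscle), 3.03% (pancreas), 11.2% (kidney) and 3.73% (brain), beside 7.29%, 2.91%, 9.28% and 4.13% of all genes. Between tissues, limma called 0.578% of genes for muscle minus pancreas, 0.461% for muscle minus brain and 0.0123% for muscle minus kidney. For the other 3 pairs it called 0%, and 0 of 132 list genes passed in any pair. That fit did not pair the tissues by animal. With an animal block, or with only the 2 tissues compared, fewer genes were called for these muscle contrasts, as given under the dependence on processing. At an unadjusted p under 0.05 (limma) the list had 14 genes for muscle minus pancreas, or 10.6% beside 12.8% of all genes. It had 12 for muscle minus brain, or 9.09% beside 9.23%, and 5 for muscle minus kidney, or 3.79% beside 6.23%. For pancreas minus brain it had 14, or 10.6% beside 8.29%. For pancreas minus kidney it had 6, or 4.55% beside 5.67%, and for kidney minus brain 6, or 4.55% beside 2.92%.

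The Atf4 list (35 of 45 measured, 34 in pancreas) holds amino acid synthesis, transfer RNA synthetase and transport genes. Its muscle median was −0.04, against −0.02 for all genes, with 11 genes above 0. In pancreas its median was 0.04, with 20 of 34 above 0. In kidney it was −0.02, with 13 of 35 above 0, and in brain 0.03, with 22. The shares of all genes above 0 were 41.6% (muscle), 50.4% (pancreas), 51.5% (kidney) and 53.4% (brain). Among list genes that kept their sign in all 4 animals, the lowest p belonged to Vldlr, a lipoprotein receptor, in muscle at 0.53 ± 0.15 (7 of 8 arrays above 0). In pancreas it was Wars, tryptophanyl transfer RNA synthetase, at 0.60 ± 0.17 (6 of 8). In kidney it was Iars, the isoleucyl enzyme, at −0.12 ± 0.04, and in brain the glycine transporter Slc6a9 at 0.21 ± 0.08 (8 of 8, as for 0.404% of genes). Without animal 1, Vldlr passed for muscle minus brain at 0.80 (limma, adjusted p = 0.0412), and with all animals it did not.

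The list of the Xbp1 and Atf6 branches (44 of 59 measured, 43 in pancreas) holds Xbp1 itself and regulators such as Atf6b besides target genes. It had median log2 ratios of −0.04 (muscle), −0.00 (pancreas), −0.02 (kidney) and 0.02 (brain). Of its measured genes, 19 (muscle), 20 (pancreas), 16 (kidney) and 26 (brain) were above 0. The shares of all genes above 0 were 41.6%, 50.4%, 51.5% and 53.4% in that order. Without Xbp1, 25 of 43 were above 0 in brain. By the same rule the named genes were Vcp, the ATPase that extracts proteins from the ER, at 0.32 ± 0.09 in muscle (8 of 8 arrays above 0) and the oxidase Ero1a at 0.22 ± 0.09 in pancreas. In kidney it was Ssr2, a subunit of the translocon-associated complex, at −0.22 ± 0.04 (1 of 8 arrays above 0; limma, adjusted p = 0.511), and in brain the COPII coat gene Sec23b at 0.26 ± 0.05. Vcp was also at 0.13 ± 0.04 in kidney, where Xbp1 and Ssr2 lay below the pool.

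The Gadd45, p53 and stress kinase list (25 of 34 measured, Gadd45a among them) had median log2 ratios of 0.01 (muscle), −0.03 (pancreas), 0.03 (kidney) and −0.04 (brain). The brain median was the value of Gadd45a itself. Mapk9, the JNK2 kinase, was at 0.53 ± 0.19 in muscle, from −0.04 with the knockout in Cy5 and 1.10 with it in Cy3. Map2k4, which activates JNK and p38, was at −0.15 ± 0.04 in kidney, below 0 on all 8 arrays, where 0.899% of genes were so. Map2k6, which activates p38, was at −0.16 ± 0.07 in brain, likewise below 0 on all 8 arrays, where 0.496% of genes were so. Cdkn1a was the gene named in pancreas.

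The AP-1 and early gene list (26 of 36 measured, Junb among them) had median log2 ratios of 0.02 (muscle), 0.07 (pancreas), −0.02 (kidney) and 0.00 (brain). In kidney, 3 of its genes, Junb not counted, were below the pool at an unadjusted p under 0.05 (limma, adjusted p from 0.522 to 0.525): Fosb at −0.10 ± 0.04 (0 of 8 arrays above 0), Fosl1 at −0.11 ± 0.04 and Zfp36 at −0.17 ± 0.07. Ier2 was at 0.11 ± 0.04 there, above 0 on all 8 arrays, as were 0.558% of genes. Fosb, Zfp36 and Ier2 were singled out after their values were seen. In muscle, Btg2, an antiproliferative early gene, was at −0.42 ± 0.15. In pancreas the orphan receptor Nr4a1 was at 0.30 ± 0.14, from 1.11 with the knockout in Cy5 and −0.50 with it in Cy3, and in brain Ier3 was at 0.05 ± 0.04. The smaller lists were the eIF2 kinases (1 of 4 measured), the eIF2 and eIF2B subunits (5 of 8) and the eIF2 alpha phosphatase (3 of 5). With Ppp1r15a not counted, Ppp1cc in pancreas was their only gene at an unadjusted p under 0.05 in the 4 tissues.

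**Figure D5:**
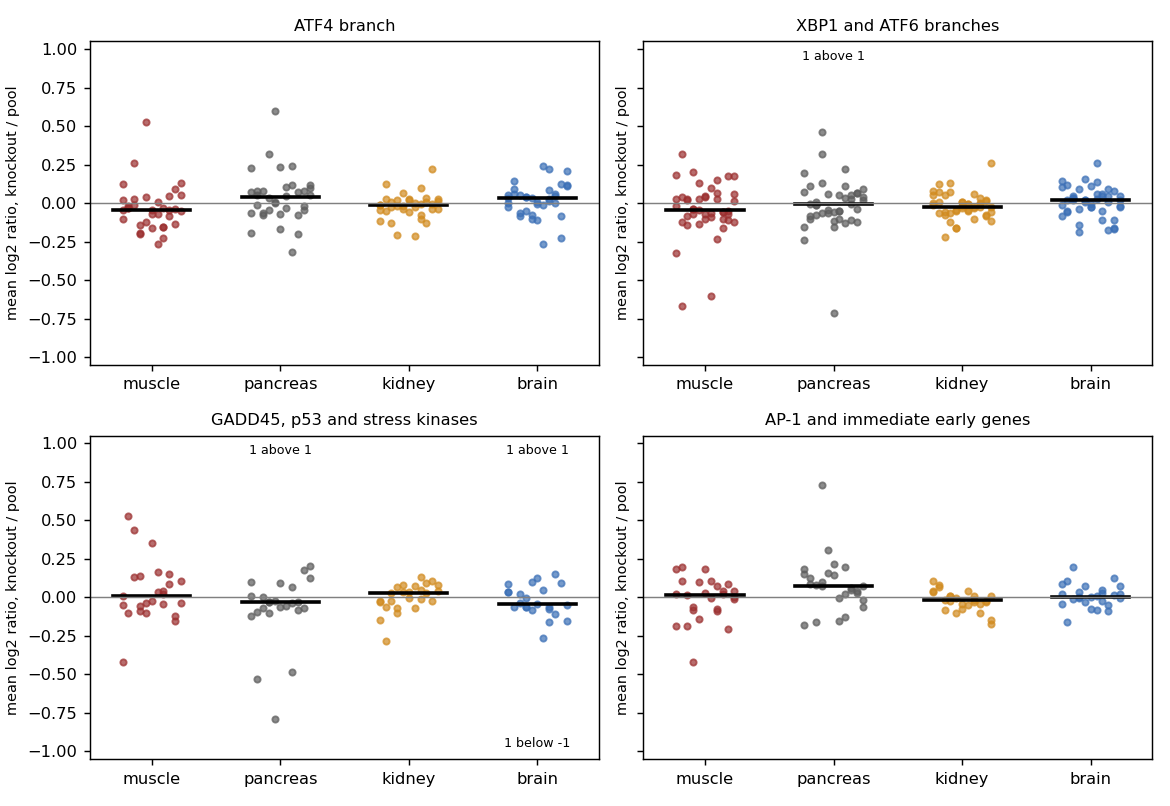
Mean log2 ratio of knockout over pool (y axis) for the measured genes of 4 stress lists, by tissue, 1 point per gene and a black bar for the list median. Medians lie between −0.04 and 0.07, and genes beyond 1 in size are written in as counts.

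The arrays carried 19815 to 20684 values each, and the median SD between animals was lowest in kidney (0.10) and brain (0.13) and higher in muscle (0.17) and pancreas (0.21). In muscle the median of all genes was −0.02, and 41.6% of genes lay above 0. Of 12 lists of cell type markers, none had a gene that passed in any tissue, and their medians ran from −0.09 to 0.04 in muscle, −0.10 to 0.05 in pancreas, −0.02 to 0.06 in kidney and −0.06 to 0.055 in brain. The skeletal muscle fibre list had 5 of 15 genes above 0 in muscle, from −0.36 to 0.72, and its animal medians ran from −0.13 to 0.01. The acinar cell list had 5 of 9 genes above 0 in pancreas, beside 50.4% of all genes. Its gene means ran from −0.18 to 0.12, and its animal medians from −0.10 to 0.06. Their part in the values of the 4 genes was not tested.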

How the data were processed

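RNA of 4 tissues from 4 knockout animals was compared with a wild-type pool on dye-swapped arrays, with indirect Cy3 and Cy5 labelling of 20 µg RNA, per the labels. What the authors deposited is a log2 ratio for each probe on each array. Base 2 was inferred from values at the floor. The direction, likely knockout over pool, was taken from the design text and from which channel carried the animal's RNA. How the scans were made, background-corrected and normalised is not given in the sources used here. Values beyond 8 in size (1844 of 655162, or 0.281%, none between 7.36 and 15.4) were positive on arrays with the knockout in Cy5 (920, 0 negative) and negative on those with it in Cy3 (924, 0 positive). They were kept as deposited and taken as missing in an alternative.

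The probe annotation gave 12771 probes 1 symbol and 8023 none, and all 9030 symbols matched RefSeq. On each array the probes of a symbol that had a value were averaged, then the 2 arrays of an animal, both required. The 2 arrays of an animal could thus average different probes, as for Ppp1r15a. In pancreas animal 4, its probe 13588 had a value with the knockout in Cy5 (−1.73) and none with it in Cy3. Limma 3.58.1 (R 4.3.3) tested animal means against 0 in each tissue (two-sided; genes needed 3 animals or more) and differences between tissues in 1 fit of 16 animal means, with a Benjamini-Hochberg adjusted p threshold of 0.05. The pool counts as 1 control, so p-values measure only the spread between knockout animals. Standard errors are limma's after moderation. The script was tested on simulated data. The number of arrays limits the precision.

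Named genes were the 4 members, 27 direct partners, any list gene that passed, for each list with at least 8 measured genes the lowest-p gene among those of 1 sign in all 4 animals of a tissue, and the 3 genes most like each member by Pearson's r. The 4 members were left out of counts of list genes past a threshold. The members, lists and rules were chosen with earlier results of these data known. The labels give the same 4 animals in every tissue, so the animal numbers pair the tissues; the deviations of 1 animal in different tissues had r between −0.0970 and 0.123. Other settings tried were floor values as missing, centred or scaled arrays, turned Cy3 arrays, each dye orientation alone, single probes, the median over probes, 1 array per animal, leaving out each animal, an animal block, only 2 tissues in the fit, a shared spread, a dye term and robust moderation.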

Additional observations from a re-analysis of the deposited data

Results flagged for a closer look

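In all, 99 groups of 4 animals were examined, from the members, their partners and the lowest-p list genes named above. Of these groups, 9 held an animal far from the other 3. Chance gives about 1 in 20 where values are normally distributed, which values at the floor are not. The share of all genes with such an animal was not counted, so no excess is read from the 9. The lowest-p list genes had been picked for 1 sign in all 4 animals, so 1 in 20 need not hold for them. In brain, Ppp1r15a had an animal at −2.37 against 0.09 to 0.20 in the others, from the floor value described above. Jun in pancreas had an animal at 2.65 against 0.02 to 0.20, also with a floor value. In muscle, Atf3 had an animal at 0.44 against −0.42 to −0.29, and Fos had an animal at 0.51 against 0.07 to 0.12. In pancreas, Ddit3 had an animal at −0.36 against 0.07 to 0.15, and Trib3 had an animal at 0.078 against −0.27 to −0.22. In kidney, Trib3 had an animal at 0.19 against −0.04 to −0.01. In brain, Ppp1cb had an animal at −0.061 against 0.08 to 0.10, and Jun had an animal at 0.067 against −0.03 to −0.02.

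As the mean of its 3 probes, Ppp1r15a differed between tissues in sign: every muscle animal was above 0, with a mean of 0.49, and every pancreas animal below 0, with a mean of −0.45, a difference of 0.94. Without probe 13588, muscle animal 1 was at −0.13 and pancreas animal 4 at 0.01, so the signs no longer parted the tissues. The gene was chosen with these values known, so no test of the difference is given.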

How the results depend on the processing

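Of 207 recomputed tissue means of the 4 genes, 183 moved by less than the spread between animals and 24 by more, and 38 had the opposite sign. Of 160 recomputed list medians 117 stayed within it, and of 248 counts 185 within 1.5 times. Means outside it are given next, and the cause of each change was not tested. With the Cy3 arrays turned, Ppp1r15a was at −0.23 in muscle and −0.20 in pancreas, Xbp1 at −0.074 in kidney, Gadd45a at 0.72 in pancreas, and Junb at 0.031 in kidney, 0.13 in muscle and 0.41 in pancreas. With the knockout in Cy5 alone, Ppp1r15a was at 0.26 in muscle, Gadd45a at 0.62 in muscle and 0.81 in pancreas, and Junb at 0.13 in muscle and 0.39 in pancreas. With the knockout in Cy3 alone, Ppp1r15a was at 0.72 in muscle, Gadd45a at 0.081 in muscle and −0.63 in pancreas, and Junb at −0.12 in muscle and −0.43 in pancreas. With arrays centred and scaled, Junb was at −0.25 in kidney. On single probes Ppp1r15a was at 0.84 in muscle and −0.14 in pancreas (2223), 0.042 in muscle (10093), and −2.48 in brain, 0.83 in kidney and 0.78 in muscle (13588). For probe 13588 the kidney value was that of 1 animal, and 2 of its 5 kidney arrays with a value were above 0. Its brain and muscle values were each from 3 animals, and the brain one held the floor value of −16.4.

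Stress genes in the counts that follow are list genes other than the 4 described. The main counts of genes past the threshold were 75 for muscle minus brain, 2 for muscle minus kidney, 94 for muscle minus pancreas and 0 elsewhere. With the replicate block (the animal) they were 0 for muscle minus brain, 0 for muscle minus kidney and 24 for muscle minus pancreas, and with only the 2 tissues compared 0 in all 3. With floor values as missing they were 114 for muscle minus brain, 151 for muscle minus pancreas and 1 in kidney. With arrays centred and scaled they were 22, 0 and 0 for muscle minus brain, kidney and pancreas. Turning the Cy3 arrays gave 328 in muscle (2 stress genes, Atf4 and Psph), 2388 in pancreas (18 stress genes) and 1 in brain. Turned, they were also 1, 0 and 5 for muscle minus brain, kidney and pancreas, 1510 for pancreas minus brain (19 stress genes) and 355 for pancreas minus kidney (4 stress genes). With Cy5 alone they were 1 in brain, 1 in pancreas, 1, 0 and 191 for muscle minus brain, kidney and pancreas (2 stress genes in the last, Mars1 and Vcp), 603 for pancreas minus brain (11 stress genes) and 131 for pancreas minus kidney (1 stress gene, Mars1). With Cy3 alone they were 1 in muscle, 2, 0 and 13 for muscle minus brain, kidney and pancreas, 18 for pancreas minus brain and 3 for pancreas minus kidney. Robust moderation gave 1 in kidney, a shared spread 255 in muscle and 57 in pancreas, and a dye term 7 in kidney and 2 in muscle.

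Leaving out each animal in turn gave 0 to 223 genes for muscle minus brain, 0 to 44 for muscle minus kidney, 1 to 115 for muscle minus pancreas, 0 to 7 for pancreas minus brain, 0 to 3 for pancreas minus kidney, 0 to 1 for kidney minus brain, 0 to 1 in brain and 0 to 1 in muscle. Among stress genes it gave 0 to 1 for muscle minus brain, the 1 being Vldlr without animal 1. As the mean of its 3 probes, Ppp1r15a stayed at 0.45 to 0.51 in muscle and −0.52 to −0.34 in pancreas. Without probe 13588 its single muscle animals ran from −0.13 to 0.69. Gadd45a stayed at 0.26 to 0.46 in muscle, and Junb at −0.17 to −0.12 in kidney. These genes were chosen with their values known. Signal over background was not used here.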
